A study of Rattus norvegicus with 10 samples.

Results

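The genes described here are the heat shock proteins and the J-domain co-chaperones, taken from the expression table by symbol: every symbol that starts with Dnaja, Dnajb or Dnajc followed by a number, and every symbol that starts with Hspa, Hspb, Hspd, Hspe or Hsph followed by a number. The Hsp90 genes were not part of the rule. It found 60 of the 16041 genes in the table, 40 J-domain genes and 20 heat shock protein genes, under 59 symbols, because Hspa8 was listed under 2 gene identifiers. RNA had been sequenced from the prefrontal cortex of male Sprague-Dawley rats, with 5 libraries from control rats and 5 from rats that had gone through early life stress (ELS). In the ELS group the litters had been kept on limited nesting material from postnatal day 2 to postnatal day 9. Both groups were sampled at postnatal day 91, so the comparison addresses transcript levels long after the stress had ended. The labels name 1 tissue sample per library and are silent on litters, so the tests below weigh differences against the spread of these samples only, which may in part be that of a litter.

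Chaperones bind proteins that are unfolded or being made and keep them from sticking together. HSP70 proteins do so in cycles driven by ATP, and J-domain proteins (also called HSP40 or DNAJ proteins) bring the client and trigger ATP hydrolysis, so that the many J proteins direct a few HSP70s to different tasks and compartments. Hspa8 is the main HSP70 of the cytosol, Hspa5 (BiP) that of the endoplasmic reticulum and Hspa9 (mortalin) that of mitochondria, where Hspd1 and Hspe1 (HSP60 and HSP10) form a separate folding chamber. In neurons some J proteins have dedicated posts, such as Dnajc5 (cysteine string protein) on synaptic vesicles and Dnajc6 (auxilin) in the uncoating of clathrin-coated vesicles. Some of these genes are switched on by heat shock factor HSF1 or by the unfolded protein response of the endoplasmic reticulum, through short elements upstream of the gene.

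Promoter sequences were searched for exact matches to 1 form of each of those elements. RefSeq promoter windows of build GRCr8 were found for 48 of the 59 symbols, and the 250 bases upstream of each annotated start were searched on both strands. The heat shock element was searched as 3 units in a row, with GAA alternating with its reverse complement TTC and 2 unspecified bases between units, starting from either form. It was present in 4 of 48 promoters of these genes (8.33%) and in 0.597% of all 27457 rat promoters in the table. Among the 10318 promoters of genes with expression values the share was 0.436%. The endoplasmic reticulum stress element was searched as CCAAT, followed by 9 unspecified bases and then by CCACG. It was present in 2 of the 48 (4.17%), in 0.0765% of all promoters and in 0.165% of those of genes with expression values. The stretches are shown for the genes with an exact match, and capitals mark the element within its neighbouring bases, 5′ to 3′ on the gene's strand.
Hspa8, far element, chr8:50080286-50080328, plus strand: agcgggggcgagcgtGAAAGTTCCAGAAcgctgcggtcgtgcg
Hspa8, near element, chr8:50080444-50080486, plus strand: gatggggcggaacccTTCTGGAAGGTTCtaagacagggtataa
Hsph1, chr12:10427317-10427359, plus strand: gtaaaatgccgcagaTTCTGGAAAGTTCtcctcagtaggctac
Hspe1, chr9:64084247-64084294, plus strand: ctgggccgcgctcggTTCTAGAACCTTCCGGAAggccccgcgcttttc
Hspd1, chr9:64084247-64084287, minus strand: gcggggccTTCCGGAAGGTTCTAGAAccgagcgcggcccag
Hspa5, chr3:38452958-38453006, plus strand: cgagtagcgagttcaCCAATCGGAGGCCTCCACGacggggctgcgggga
Dnajc3, chr15:102432519-102432567, plus strand: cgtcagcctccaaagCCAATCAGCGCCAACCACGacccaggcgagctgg

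Hspd1 and Hspe1 lie head to head on opposite strands, with starts 290 bases apart, and their windows share 211 bases. The sequences printed for these genes are therefore the same element read on either strand, in which 2 overlapping matches run together. In Hspe1 the nearest match ended 48 bases upstream of the start and in Hspd1 225 bases upstream. The 2 matches of Hspa8 ended 201 and 43 bases upstream, and that of Hsph1 24 bases upstream. In Hspa5 the stress element ended 25 bases upstream and in Dnajc3 115 bases upstream. A match describes these letters only, and whether a factor was bound was not measured. The search cannot show that a gene lacks an element, because inexact forms and bases outside the window were not searched. The 11 symbols without a window were not searched at all.

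**Figure D1:**
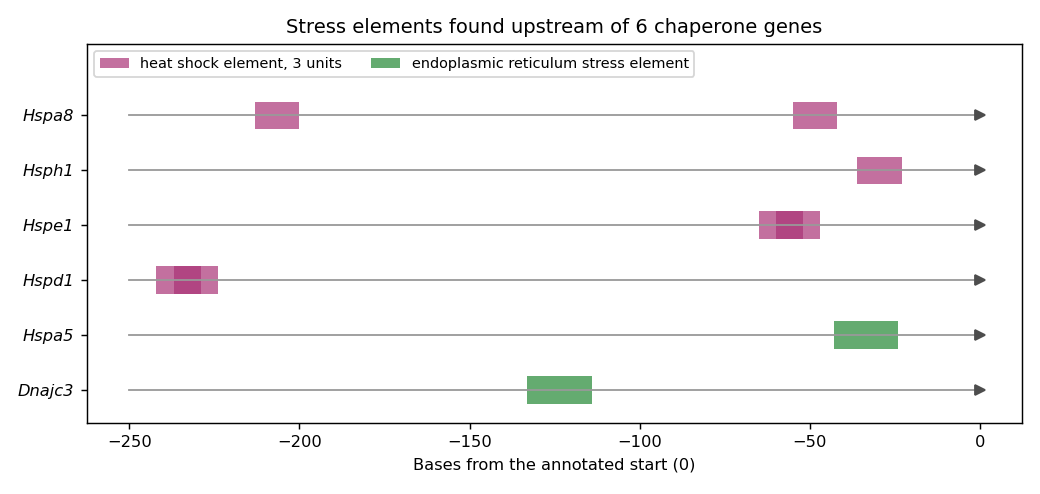
Position of each match in the 250 bases upstream of the annotated start, for the 6 genes with a heat shock element or an endoplasmic reticulum stress element, with the horizontal axis in bases from the start at 0. Measured at the end nearest the start, matches lie from 24 bases (Hsph1) to 230 bases (Hspd1) upstream.

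Expression values are RPKM, the reads of a gene scaled by its length and by the library total. RPKM can be compared between genes as far as the gene lengths used by the authors are right. Library totals ran from 18838898 to 22311136 reads, and the reads behind a value are given where they limit it. Markers of neurons, astrocytes, oligodendrocytes and microglia were present in every library, as the label prefrontal cortex implies. The groups differed in them: all 7 oligodendrocyte and myelin markers had a lower mean in ELS, with a summed level of 1103 to 2270 RPKM in control and 833 to 1085 RPKM in ELS, and so did all 6 astrocyte markers (933 to 1143 against 791 to 871 RPKM). All 6 microglial markers were also lower on average (90.9 to 107.7 against 80.3 to 96.8 RPKM), while 5 of 6 neuronal markers were higher (1665 to 1904 against 1982 to 2278 RPKM). All 4 entries of 3 erythroid markers, which come with blood in the tissue, were lower too (411.5 to 981 RPKM in control and 213.8 to 438 RPKM in ELS). In bulk tissue fewer cells of a type and less RNA per cell cannot be told apart, and the part of these shifts in the chaperone values below was not tested. Control replicate 4 and ELS replicate 2 stood apart: the first held the highest myelin sum and received the lowest library weight when weights were estimated (0.185), and the second lay at -10.4 on the first principal component, among the controls (-17.0 to -3.38) and away from the other ELS libraries (8.49 to 24.96).

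Chaperone transcripts spanned from 0.396 to 105 RPKM (means over the 10 libraries), with a median of 16.0 RPKM. Dnaja1, a class A partner of cytosolic HSP70, was the most abundant at 105 RPKM. It was followed by Hspa5 at 80.3, Hspe1 at 72.1, Hsph1 (HSP110, the nucleotide exchange factor of HSP70) at 70.5, Dnaja2 at 69.3, Dnajc5 at 65.7 and Dnajc6 at 62.9 RPKM. The neighbours from Hspe1 to Dnajc5 differed by less than the spread between libraries of Hsph1, whose SD in control was 11.6 RPKM. The gene model behind Hspe1 was 267 bases long, which makes its RPKM the most dependent on the annotation. Hspa8 was listed at 24.3 RPKM under one identifier (ENSRNOG00000034066) and at 0.396 RPKM under the other (ENSRNOG00000032585). RefSeq lists 33 pseudogenes of Hspa8, 20 of Hspd1, 10 of Dnajb6 and 4 of Dnaja1, and reads that match several near-identical copies are uncertain for these genes, so the rank of Hspa8 below its partners is not a firm one. At the other end of the scale were Hspa1l at 0.684, Dnajb3 at 1.35, Hspb2 at 1.77 and Dnajc25 at 2.10 RPKM. The heat-inducible genes Hspa1a and Hspa1b were not analysed here.

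**Figure D2:**
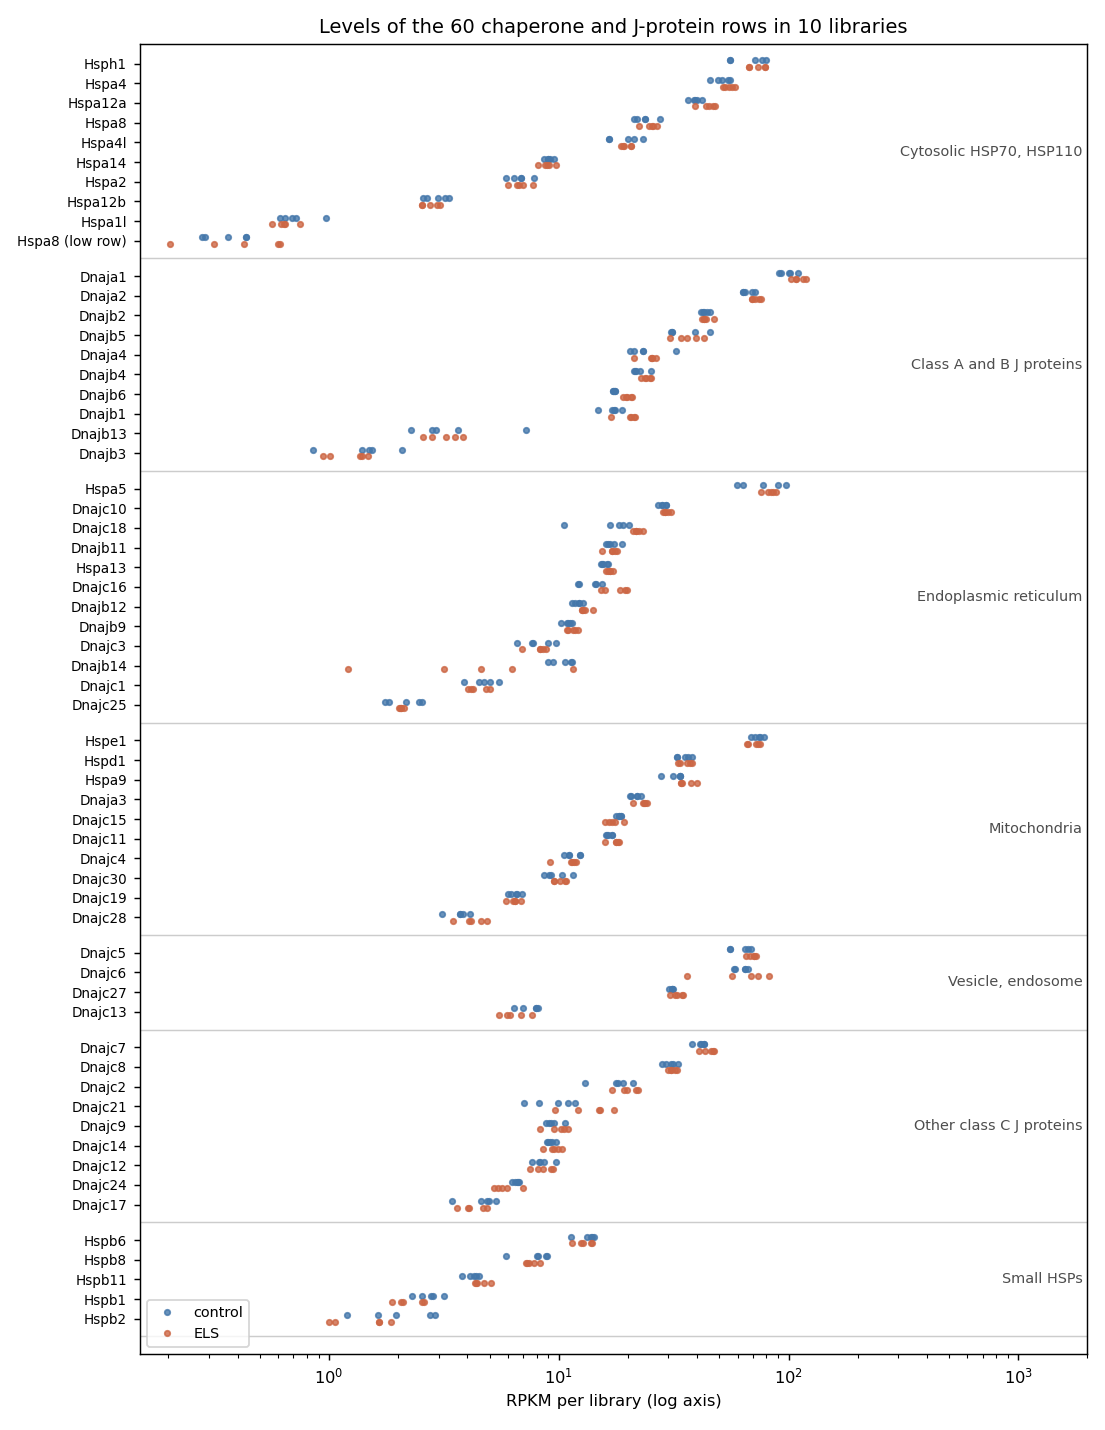
RPKM of the 60 genes in each of the 10 libraries on a log axis, ordered by mean level within role groups, with blue points for the 5 control and orange points for the 5 ELS libraries. Levels run from 0.203 RPKM in the lower Hspa8 entry to 119.5 RPKM in Dnaja1, and the 2 groups of libraries lie close together for most genes.

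The comparison of ELS with control covered 59 of the 60 genes, all but the lower Hspa8 entry, which was below the filter of 0.5 RPKM in at least 5 libraries. No gene of the set passed an adjusted p of 0.05 (limma with Benjamini-Hochberg adjustment over 14642 genes; 0% of all genes passed, and limma-voom on the recovered reads also called 0), and the lowest adjusted p was 0.133. Of the set, 15 genes (25.4%) had an unadjusted p under 0.05, 12 with a higher mean and 3 with a lower mean in ELS. Over all genes tested the share was 20.4%, made up of 10.1% higher and 10.3% lower. Means were higher in ELS for 38 genes and lower for 21, so that 64.4% were higher, where 50.6% of all genes were. The median log2 fold change was 0.05, against 0.00 over all genes tested, and the SD of the library medians of the set was 0.04. Scaling by the upper quartile in place of the library total moved the median of the set to 0.023 and that of all genes to -0.022. Under that scaling 33 genes of the set had a higher and 26 a lower mean (55.9% higher, against 44.6% of all genes). At an unadjusted p under 0.05 it gave 8 higher and 4 lower genes of the set, where 7.25% and 12.6% of all genes were. The 12 genes on the higher side were Dnaja1, Dnaja2, Dnajb1, Dnajb6, Dnajb12, Dnajc5, Dnajc7, Dnajc16, Dnajc18, Dnajc21, Hspa9 and Hspa12a, and the 3 on the lower side were Dnajb14, Dnajc13 and Hspb1.

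Library values separated the groups completely for 3 genes, Dnajb6, Dnajc18 and Hspa9, all higher in ELS (3.08% of all genes did so in that direction), and for no gene in the lower direction (2.6% of all genes). Without ELS replicate 2 the number was 10 higher and 2 lower, where 7.32% and 6.56% of all genes tested did so. That ELS library lay among the controls on the first principal component, so its omission tends to widen the gap between the groups. Calls made without it, here and for single genes below, are therefore not separate support for a difference. The same omission brought 4 genes past the adjusted threshold, Dnajb6, Dnajc16, Hspa12a and Dnajb1, all higher in ELS, while 3.03% of all genes passed. Omitting control replicate 4 as well gave 6, with Dnaja4 higher and Dnajc13 lower added, while 7.62% of all genes passed. With a weight per library 2 passed, Dnajb6 and Dnajc16, and 5.91% of all genes did. Those 4, 6 and 2 of 59 genes are thus above the share of all genes in the first 2 settings and below it in the last, by a few genes each time.

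**Figure D3:**
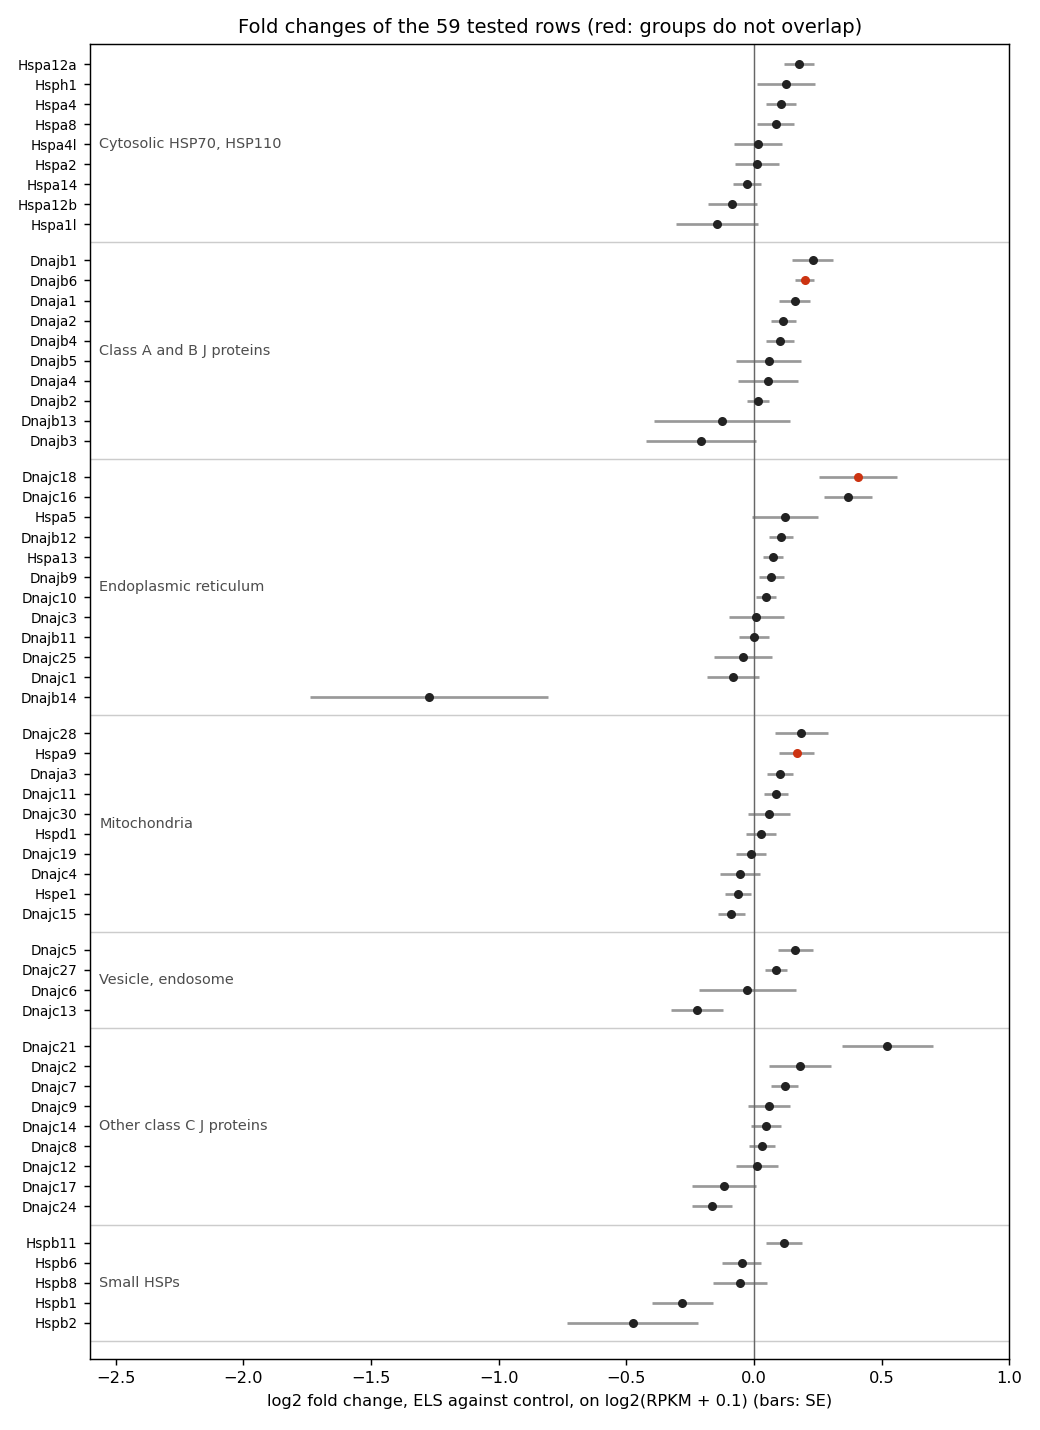
Log2 fold change of ELS against control with its standard error for the 59 genes tested, by role group, on the log2(RPKM + 0.1) scale. Most values lie between -0.3 and 0.3, Dnajb14 stands at -1.27 and Dnajc21 at 0.52, and red marks the 3 genes whose groups do not overlap.

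Class A and class B J proteins of the cytosol and nucleus are the general partners of HSP70. Of 10 genes 8 had a higher mean in ELS (50.6% of all genes did), the median log2 fold change was 0.08, and 4 had an unadjusted p under 0.05, all higher (10.1% of all genes). Dnajb6, which keeps polyglutamine and other aggregating proteins soluble, was at 17.5, 17.3, 17.1, 17.3 and 17.6 RPKM in control replicates 1 to 5 and at 19.7, 19.0, 20.9, 19.5 and 20.6 RPKM in ELS replicates 1 to 5. Every ELS library lay above every control library, including ELS replicate 2. The means were 17.4 ± 0.180 and 19.96 ± 0.771 RPKM (SD, n = 5 in each group), which is 0.20 higher on the log2 scale with an SE of 0.04 (limma, adjusted p = 0.133). Without ELS replicate 2 it was 0.21 higher (limma, adjusted p = 0.0270). That omission, of the ELS library among the controls on the first principal component, took 3.03% of all genes past the threshold. The control libraries varied by 1.04%, less than the 3.28% that counting error alone gives at these reads, so the spread in control is narrower than the depth would give on average.

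Dnajb1, the heat-inducible HSP40, was at 17.4, 17.1, 18.8, 14.9 and 17.6 RPKM in control and at 21.5, 16.9, 20.5, 21.2 and 20.6 RPKM in ELS. Only ELS replicate 2 lay within the control range, and the other 4 ELS libraries lay above it. The log2 fold change was 0.23 ± 0.08 (limma, adjusted p = 0.166), and without ELS replicate 2 it was 0.29 with an adjusted p of 0.0452.

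Dnaja1 was at 101.3, 93.0, 91.0, 100.9 and 110.1 RPKM in control and at 108.2, 102.5, 115.6, 119.5 and 107.6 RPKM in ELS. The groups overlapped in the upper control library, and 2 ELS libraries lay above all controls. The difference was 0.16 ± 0.06 on the log2 scale (limma, adjusted p = 0.190). Dnaja2, its close relative, was at 63.5, 63.5, 64.8, 71.7 and 69.5 RPKM in control and at 69.3, 69.3, 74.5, 75.6 and 71.8 RPKM in ELS. Here control replicates 4 and 5 reached into the ELS range, and the log2 fold change was 0.12 ± 0.05 (limma, adjusted p = 0.213). Dnajb2, a ubiquitin-binding J protein of neurons, had nearly equal means of 43.2 ± 1.45 and 43.7 ± 1.996 RPKM. The largest decrease in mean in the class was that of Dnajb3, a gene at 1.35 RPKM, with -0.21 ± 0.22.

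Endoplasmic reticulum chaperones and J proteins included the lowest log2 fold change of the set, that of Dnajb14. Of 12 genes 8 had a higher and 4 a lower mean in ELS, and the median log2 fold change was 0.06. Hspa5, the chaperone whose promoter carries the stress element shown above, was at 77.2, 63.1, 59.7, 97.7 and 90.3 RPKM in control and at 81.1, 75.7, 85.7, 84.3 and 88.3 RPKM in ELS. The ELS libraries lay inside the control range, which was wide (a coefficient of variation of 21.3% in control and 5.84% in ELS). It amounted to a log2 fold change of 0.12 ± 0.13 (limma, adjusted p = 0.622), with 0.034 without control replicate 3 and 0.21 without control replicate 4. The 6 textbook genes of the unfolded protein response in the set (Hspa5, Hspa13, Dnajb9, Dnajb11, Dnajc3 and Dnajc10) had log2 fold changes of -0.00 to 0.12. Of the 6, 0 had an unadjusted p under 0.05, where 20.4% of all genes tested did. A list of 6 genes is too short to set apart from that share. Dnajc10, a disulfide reductase and second in level to Hspa5 here, had means of 28.4 ± 0.953 and 29.3 ± 0.932 RPKM. Dnajc3, which bears the other stress element, had means of 8.14 RPKM in control and 8.15 RPKM in ELS.

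Dnajc16, a membrane-anchored J protein, was at 14.6, 14.3, 12.2, 12.1 and 15.4 RPKM in control and at 15.9, 15.3, 19.9, 19.3 and 18.6 RPKM in ELS. Of the ELS libraries only replicate 2 lay under the highest control, by a small margin. The log2 fold change was 0.37 ± 0.10 (limma, adjusted p = 0.133), and it was 0.42 with an adjusted p of 0.0455 without ELS replicate 2. Dnajc18, another membrane-anchored J protein, was at 18.4, 10.6, 16.8, 19.0 and 20.3 RPKM in control and at 21.7, 21.8, 22.4, 23.1 and 21.0 RPKM in ELS. The groups did not overlap, but control replicate 2 lay far under the other controls, and the log2 fold change of 0.41 ± 0.15 (limma, adjusted p = 0.184) was 0.24 without it.

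Dnajb14, a J protein of the endoplasmic reticulum membrane and a relative of Dnajb12, differed most of all the genes described here. It was at 10.7, 11.4, 9.00, 9.48 and 11.3 RPKM in control and at 6.27, 11.6, 1.21, 3.18 and 4.57 RPKM in ELS. ELS replicates 1, 3, 4 and 5 all lay under the lowest control and ELS replicate 2 lay above the highest. The log2 fold change was -1.27 ± 0.47 (limma, adjusted p = 0.178), and without ELS replicate 2 it was -1.63 with an adjusted p of 0.0565. Without ELS replicate 3, the lowest library, it was -0.84. Dnajb14 was the one gene of the 59 that was at least 1.5-fold lower, where 4% of all genes were, and no gene of the set was 1.5-fold higher (1.5% of all genes). Reads of Dnajb14 ran from 46 to 475 per library, so counting error is small beside these gaps. Its relative Dnajb12 had means of 12.1 ± 0.516 and 13.0 ± 0.585 RPKM, a difference in the other direction of 0.11 ± 0.05 (limma, adjusted p = 0.243).

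**Figure D4:**
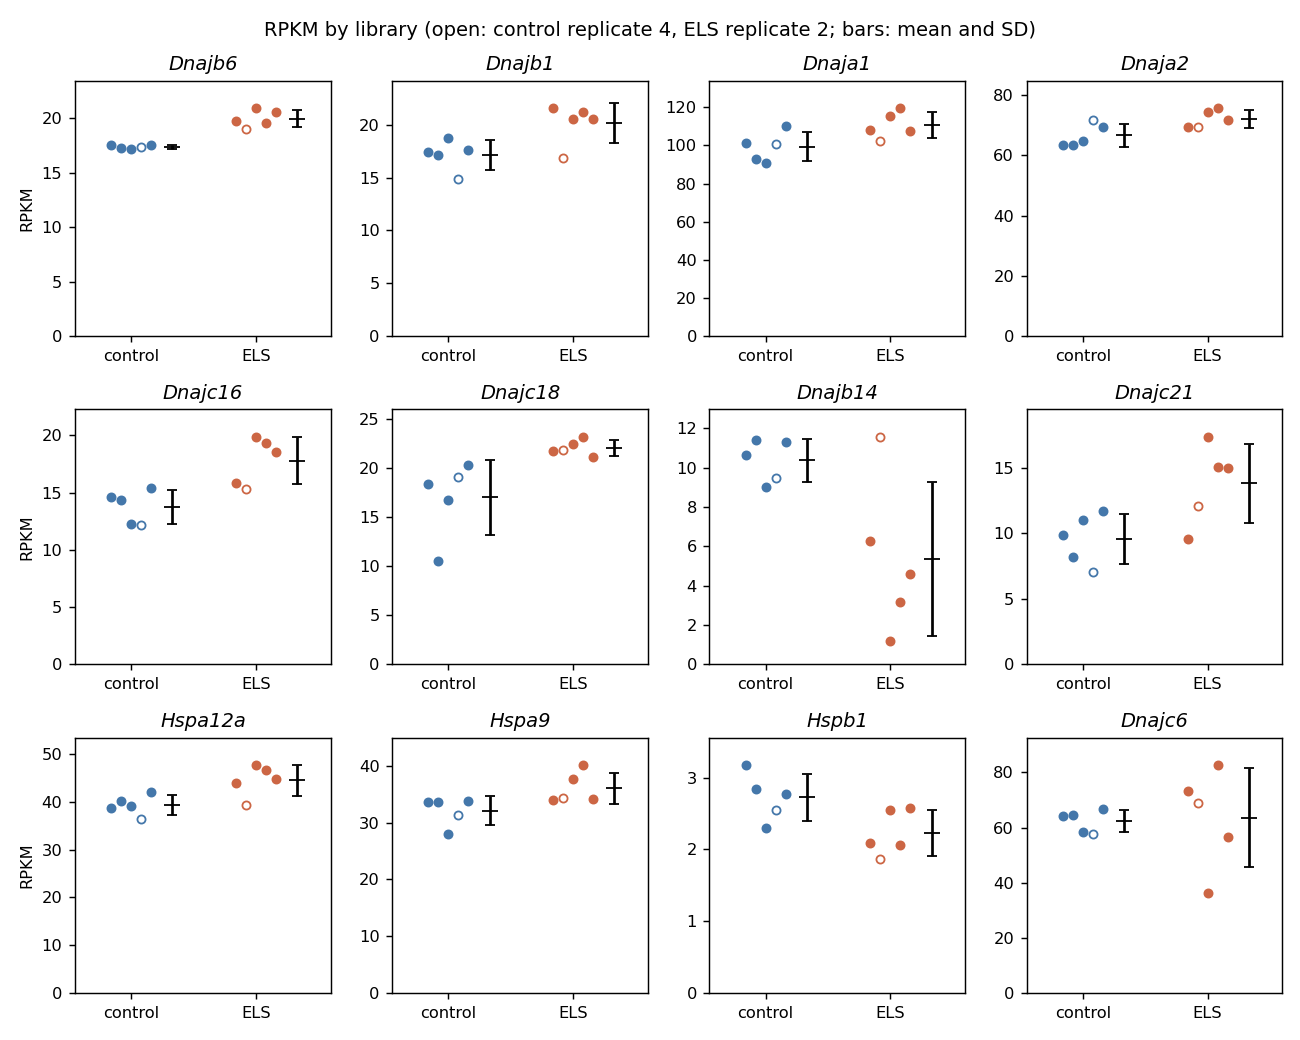
RPKM of 12 genes in every library, with blue points for control and orange points for ELS, bars for the mean and SD of 5 libraries, and open points for control replicate 4 and ELS replicate 2. In Dnajb14 the open ELS point at 11.6 RPKM lies with the controls and the other 4 ELS libraries lie at 1.21 to 6.27 RPKM.

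Cytosolic HSP70 and HSP110 genes had small differences in mean between the groups. Of the 9 tested, 6 had a higher and 3 a lower mean in ELS, and their log2 fold changes had a median of 0.02. Hspa8 was at 23.7, 21.3, 22.0, 23.7 and 27.5 RPKM in control and at 22.4, 24.8, 25.4, 26.8 and 25.7 RPKM in ELS. All ELS values lay within the control range, and the log2 fold change was 0.08 ± 0.07 (limma, adjusted p = 0.531). Hsph1 was at 71.6, 55.6, 55.5, 76.7 and 79.7 RPKM in control and at 67.2, 67.1, 79.3, 79.3 and 73.4 RPKM in ELS. Again no ELS library left the control range, in which replicates 2 and 3 were low, and the log2 fold change was 0.12 ± 0.11 (limma, adjusted p = 0.555; 0.057 without control replicate 3 and 0.19 without control replicate 5). Hspa4, another HSP110-type exchange factor, had means of 51.2 ± 4.05 and 55.1 ± 2.73 RPKM.

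Hspa12a, a distant and atypical HSP70 that is abundant in brain, gave the one unadjusted p under 0.05 of this group. That is 1 of 9 genes, where 20.4% of all genes tested had such a p. It was at 38.8, 40.1, 39.2, 36.4 and 42.0 RPKM in control and at 43.9, 39.3, 47.7, 46.8 and 44.9 RPKM in ELS. The 4 ELS libraries other than replicate 2 lay above every control, with a log2 fold change of 0.18 ± 0.06 (limma, adjusted p = 0.158). Without ELS replicate 2 it was 0.22 with an adjusted p of 0.0459. Hspa12b, its vascular relative, had means of 2.95 and 2.77 RPKM and a log2 fold change of -0.09 ± 0.10, while endothelial markers summed to 11.2 to 15.3 RPKM in control and 12.1 to 14.96 RPKM in ELS.

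Mitochondrial chaperones and J proteins numbered 10, of which 6 had a higher and 4 a lower mean in ELS (median log2 fold change 0.04). Hspa9, which also drives protein import into mitochondria, was at 33.7, 33.7, 28.0, 31.3 and 33.8 RPKM in control and at 34.0, 34.3, 37.7, 40.1 and 34.1 RPKM in ELS. The groups did not overlap, but 3 control and 3 ELS libraries lay within a narrow band on either side of the gap. Its log2 fold change was 0.17 ± 0.07 (limma, adjusted p = 0.209). Hspd1 was at 35.3, 32.5, 32.8, 38.1 and 36.5 RPKM in control and at 33.8, 33.1, 37.3, 38.1 and 36.2 RPKM in ELS. Hspe1 was at 68.5, 74.9, 71.7, 78.2 and 74.6 RPKM in control and at 65.9, 66.6, 71.9, 73.3 and 74.8 RPKM in ELS. The groups overlapped for both genes of this head-to-head pair, with ELS replicates 1 and 2 under all controls for Hspe1, and with log2 fold changes of 0.03 ± 0.06 and -0.06 ± 0.05 (limma, adjusted p = 0.821 and 0.503). Dnajc28 had the largest difference in this compartment, with means of 3.69 ± 0.362 and 4.22 ± 0.532 RPKM and a log2 fold change of 0.19 ± 0.10 (limma, adjusted p = 0.334).

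Vesicle and endosome J proteins split evenly, with 2 higher and 2 lower means. Dnajc5 was at 64.7, 66.9, 55.4, 55.4 and 68.6 RPKM in control and at 65.4, 67.7, 70.8, 71.9 and 70.5 RPKM in ELS. The ELS libraries clustered at the upper end of the control range, and 3 exceeded it, with a log2 fold change of 0.16 ± 0.07 (limma, adjusted p = 0.220). Dnajc5 acts in nerve terminals, and the summed neuronal markers were higher in every ELS library than in any control. Whether this bears on the Dnajc5 values was not tested. Dnajc6 was at 64.3, 64.4, 58.5, 57.8 and 66.9 RPKM in control and at 73.3, 69.0, 36.2, 82.6 and 56.6 RPKM in ELS. Its ELS libraries spread to both sides of the controls, with a coefficient of variation of 28.2% against 6.44% in control and a counting error of 1.22%. The log2 fold change was -0.03 ± 0.19 (limma, adjusted p = 0.949), and it was 0.16 without ELS replicate 3. Dnajc27, a small GTPase with a J domain, had means of 31.0 ± 0.509 and 32.9 ± 1.87 RPKM. Dnajc13, which acts in sorting at endosomes, had means of 7.48 ± 0.752 and 6.41 ± 0.836 RPKM and a log2 fold change of -0.22 ± 0.10 (limma, adjusted p = 0.241).

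Among the other class C J proteins 7 of 9 had a higher mean in ELS (median log2 fold change 0.05). Dnajc21, which helps to assemble the large ribosomal subunit, had the largest increase in mean of the whole set. It was at 9.92, 8.18, 10.997, 7.05 and 11.7 RPKM in control and at 9.60, 12.1, 17.4, 15.1 and 15.004 RPKM in ELS. ELS replicate 1 lay among the controls and the other 4 ELS libraries lay above them. Its log2 fold change was 0.52 ± 0.18 (limma, adjusted p = 0.166). Dnajc7, which binds both HSP70 and HSP90, was the most abundant of these genes, with means of 41.3 ± 2.02 and 44.9 ± 2.71 RPKM and a log2 fold change of 0.12 ± 0.05. Dnajc8, linked to RNA splicing, was at 30.6 ± 1.92 and 31.2 ± 1.20 RPKM, and Dnajc2, a ribosome-bound J protein, was at 17.8 ± 2.997 and 19.99 ± 2.05 RPKM.

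Small heat shock proteins, which hold unfolded proteins without ATP, had low levels, and 4 of 5 had a lower mean in ELS (median log2 fold change -0.06). Hspb1 (HSP27) was at 3.17, 2.84, 2.29, 2.55 and 2.78 RPKM in control and at 2.09, 1.87, 2.55, 2.06 and 2.58 RPKM in ELS. ELS replicates 1, 2 and 4 lay under all controls and the remaining pair lay among them, at 31 to 57 reads per library. The log2 fold change was -0.28 ± 0.12 (limma, adjusted p = 0.221). Hspb2, a muscle-type small heat shock protein, had means of 2.09 ± 0.724 and 1.44 ± 0.388 RPKM at 11 to 35 reads, and its log2 fold change of -0.48 ± 0.26 (limma, adjusted p = 0.319) stands beside a counting error of 22.4% per library. The more abundant Hspb6 and Hspb8 had log2 fold changes of -0.05 ± 0.08 and -0.06 ± 0.11, and Hspb11, a part of the transport machinery of cilia, had means of 4.20 ± 0.266 and 4.57 ± 0.314 RPKM. Hspb1 and Hspb6 are found in glia and in vessel walls as well as in neurons. All 6 astrocyte markers had a lower mean in ELS. Of 4 smooth muscle markers 2 were higher and 2 lower, with sums of 22.0 to 29.0 RPKM in control and 21.7 to 27.5 RPKM in ELS. Whether these markers bear on the values of Hspb1 and Hspb6 was not tested.

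Across compartments, the textbook targets of HSF1 in the set had values in both directions. Of 10 tested, 7 had a higher and 3 a lower mean in ELS, and the log2 fold changes had a median of 0.06. At an unadjusted p under 0.05 Dnaja1 and Dnajb1 were higher and Hspb1 lower. That is 3 of 10, where 20.4% of all genes tested had such a p. The 4 genes with a heat shock element in the searched window had log2 fold changes of 0.08 (Hspa8), 0.12 (Hsph1), 0.03 (Hspd1) and -0.06 (Hspe1). Hsf1 itself, which is not one of the 60 genes, had means of 11.6 ± 1.16 and 11.98 ± 0.374 RPKM (log2 fold change 0.05 ± 0.07).

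Genes that work together were compared over the 10 libraries in 7 pairs, with p-values adjusted over the 7. Hspa8 and Hsph1 varied together, with a Pearson r of 0.85 and a Spearman rho of 0.84 (permutation test, two-sided, adjusted p = 0.0106 for r and 0.0250 for rho, n = 10). By r, Hsph1 ranked 20 among the 14641 other genes compared with Hspa8. The relation was as strong with the group means removed (r = 0.83, permutation adjusted p = 0.0175). Without control replicates 2 and 5, the farthest from the median of Hspa8, r was 0.76 and the permutation adjusted p was 0.0506, so the call rests in part on those libraries. Hspa5 and its partner Dnajb11 had r = 0.68 and rho = 0.77 (permutation adjusted p = 0.102 and 0.0435), and r was 0.86 without control replicates 2 and 3 (permutation adjusted p = 0.0255). Dnajb11 ranked 595 by r for Hspa5, and with the group means removed r was 0.71 (permutation adjusted p = 0.0728). Hspd1 and Hspe1, which share 1 element, had r = 0.50 and rho = 0.32 (permutation adjusted p = 0.326 and 0.847), and r was 0.87 without control replicates 2 and 3 (permutation adjusted p = 0.0255). Hspe1 ranked 1670 by r for Hspd1, and with the group means removed r was 0.63 (permutation adjusted p = 0.135).

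The remaining 4 pairs had low correlations, with the second gene ranked 4042 to 7065 by r. Pearson r was 0.25 for Hspa5 and Dnajb9, 0.21 for Hspa8 and Dnajb1, 0.13 for Dnajb1 and Hsph1 and 0.03 for Dnajc5 and Dnajc6, and the permutation adjusted p was at least 0.785 in each. With 10 libraries these p-values do not show that a relation is absent.

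**Figure D5:**
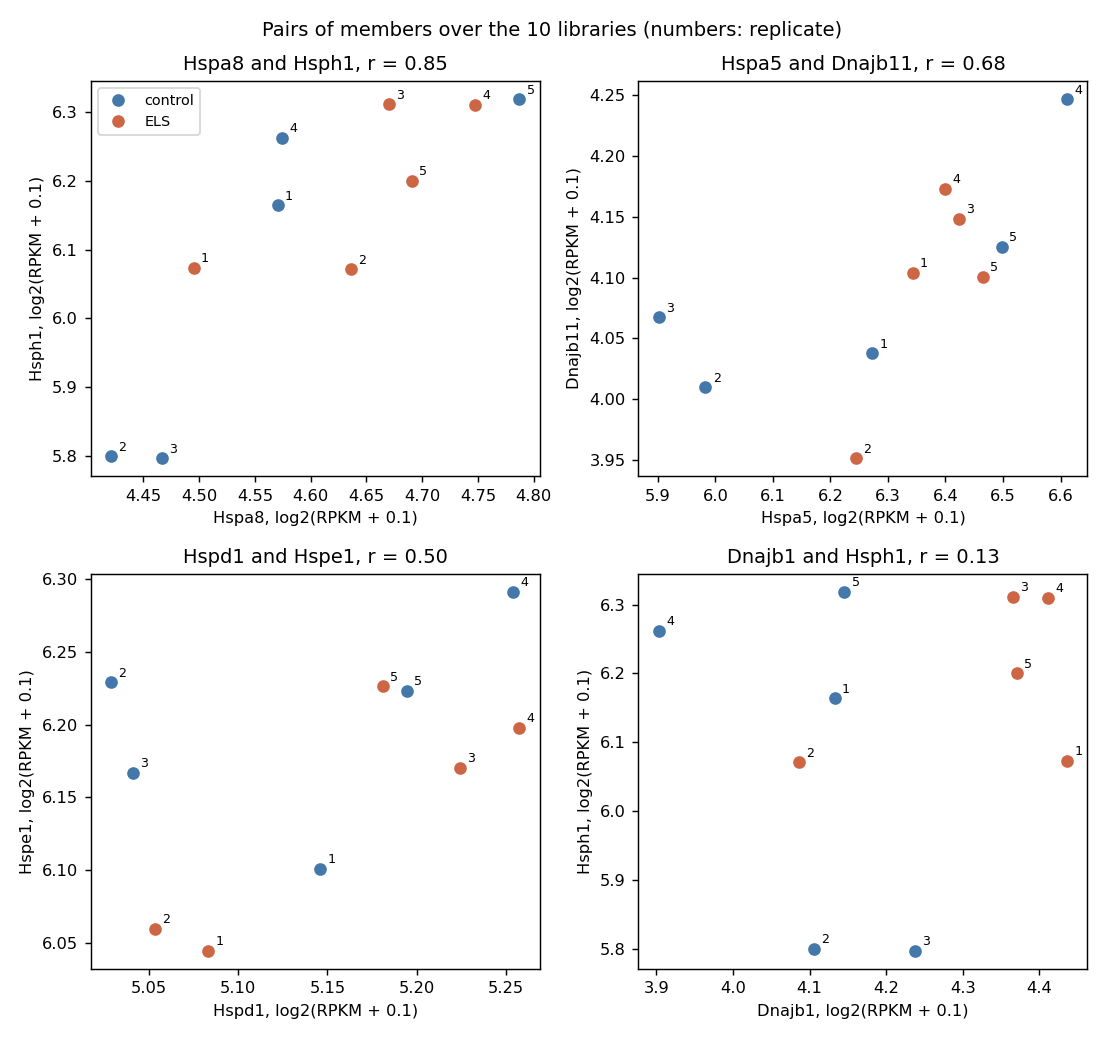
Log2(RPKM + 0.1) of the second gene against the first gene of a pair, 1 point per library with its replicate number, blue for control and orange for ELS. Points of Hspa8 and Hsph1 follow a rising line (r = 0.85), and those of Hspd1 and Hspe1 scatter more widely (r = 0.50).

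Other folding genes were followed as a list of 64 partners, co-factors and regulators, of which 61 had a value. Of these, 41 had a higher and 20 a lower mean in ELS (median log2 fold change 0.06), and 0 passed the adjusted threshold. At an unadjusted p under 0.05, 14 were higher and 3 lower (27.9%, against 20.4% of all genes tested). The 5 of lowest p on the higher side were Trap1, the mitochondrial HSP90, at 0.18 ± 0.05, Gak, the broadly expressed relative of auxilin, at 0.18 ± 0.05, Cdc37, which brings kinases to HSP90, at 0.12 ± 0.03, Hsf4 at 0.29 ± 0.09 and Vcp at 0.15 ± 0.05 (log2 fold changes; limma, adjusted p = 0.133 to 0.156). On the lower side, Sdf2l1 was at -0.38 ± 0.13 and Bag2 at -0.19 ± 0.07 (log2 fold changes; limma, adjusted p = 0.165 and 0.183). Hsp90ab1, the cytosolic HSP90, was at 391.5 ± 18.5 RPKM in control and 416.3 ± 19.2 RPKM in ELS, and its relative in the endoplasmic reticulum, Hsp90b1, at 79.7 ± 8.53 and 83.0 ± 7.12 RPKM. Stip1, which links HSP70 to HSP90, had a log2 fold change of 0.06 ± 0.05. The HSF1 targets Bag3 and Cryab had lower means in ELS, at -0.27 ± 0.25 and -0.22 ± 0.16, and both were highest in control replicate 4, at 4.51 and 18.7 RPKM. Without that library and ELS replicate 2, Bag3 stood at 0.065 on the log2 scale.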

How the data were processed

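RNA from 10 prefrontal cortex samples was made into stranded mRNA libraries, per the labels' protocols. Per the submitters' processing notes, the tools were STAR and featureCounts and the build was rn6. Annotation and strand setting: not given in the sources used here. RPKM values were deposited by the authors for 16041 genes. Whole reads, lengths and library totals were recovered from the steps of these values for 16015 genes (100% of those above 0, tolerance 0.002 reads), and 71.1% to 73.7% of each total fell in the listed genes. Because the values are RPKM, the planned count test was replaced.

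Tests used log2(RPKM + 0.1), on which fold changes of low genes are understated. A gene needed 0.5 RPKM in 5 libraries, and 14642 met this. They were tested with limma 3.58.1 (R 4.3.3; trend, robust, two-sided) and Benjamini-Hochberg adjustment at 0.05. The median standard error was 0.0976. The fitting procedure was also run on simulated data with known changes. Correlations used 100000 permutations. Samples were treated as unpaired. Deviations from the group means correlated at -0.08 to 0.07 between same-numbered libraries, which cannot exclude a shared litter or day. Alternatives covered the pseudocount, filter, scaling, limma-voom, library weights, variance model, replicate block and omitted libraries.

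The gene set, the lists and the choice of alternatives were made with earlier results of these data known. Genes given with all library values were a fixed set of well-known chaperones, the 10 of lowest p and those whose groups did not overlap. Further genes were given by mean where they were among the 3 most abundant or the most different of their role group, or lay below the filter, with a fixed set and the 5 of lowest p per direction of the other folding genes. Dnajb2, Dnajb3, Dnajb12, Dnajb13, Dnaja4, Dnajc3, Dnajc25, Hspa1l and Hspa12b were chosen after their values were seen where this rule did not name them. Promoters came from RefSeq (GRCr8), a build other than that of the expression values. Pseudogenes were counted in RefSeq by symbol. One of the other folding genes is not reported here. Protein sequences and the pair Hspa1b and Dnajb1 were not analysed here.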

Additional observations from a re-analysis of the deposited data

Results flagged for a closer look

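In 59 genes and 2 groups of 5 libraries, 118 checks for 1 library far from the other 4 (gap over range above Dixon's 0.71) found 9, and chance alone marks about 1 in 20. ELS replicate 2 was the lowest of its group for Dnaja4 (21.3 RPKM), Dnajb1 (16.9 RPKM), Dnajc4 (9.14 RPKM) and Dnajc11 (15.9 RPKM). Control replicate 4 was the highest of its group for Dnaja4 (32.2 RPKM) and for Dnajb13, a J protein of cilia and sperm tails (7.20 RPKM), and the lowest for Hspb8 (5.89 RPKM). Summed ependymal markers were also highest in that library (7.53 RPKM, against 2.83 to 4.03 RPKM in ELS). Whether this bears on the Dnajb13 value was not tested. ELS replicate 3 was the highest for Dnajb12 (14.0 RPKM) and the lowest for Dnajc3 (6.89 RPKM).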

How the results depend on the processing

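The number of genes past the adjusted threshold turned on single libraries. Over all genes it was 0, and leaving out 1 library gave 0 to 444 (1 without ELS replicate 5, 444 without ELS replicate 2); it was 1116 without ELS replicate 2 and control replicate 4 and 866 with library weights. For the chaperone genes these numbers were 0 to 4, 6 and 2, and for the other folding genes 0 to 2, 3 and 2. With the replicate number as a block (replicate block), 0 genes of the set passed. The median log2 fold change was 0.05 as before, which the design fixes, because each number holds 1 control and 1 ELS library. No control library correlated best with its own number except replicate 3. Leaving out 1 library moved the median of the set between 0.03 and 0.06, and upper quartile scaling gave 0.023. Genes of the set with an unadjusted p under 0.05 numbered 6 to 14 on the higher side (6 without ELS replicate 4, 7 without ELS replicate 3) and 1 to 4 on the lower. With all libraries 10.1% of all genes were higher and 10.3% lower at that p. The share of all genes was not taken for each omission, so these ranges are not set against it. Non-overlapping genes numbered 3 to 10 higher and 0 to 2 lower. The 10 and the 2 came without ELS replicate 2, where 7.32% and 6.56% of all genes did not overlap (3.08% and 2.6% with all libraries). The filter, variance model and replicate block cannot change a fitted fold change, so their values kept the direction by construction. With these included, of 860 values of 41 named genes under the alternatives, 853 kept their direction. Those that did not were Dnajb13 (0.14 with weights, 0.13 without control replicate 4 and 0.18 without that library and ELS replicate 2, with -0.27 to 0.13 over all omissions of 1 library), Dnajc6 (0.16 without ELS replicate 3, 0.0019 without ELS replicate 5, with -0.13 to 0.16 over all omissions of 1 library), Dnaja4 (-0.0018 without control replicate 2) and Bag3 (0.065 without ELS replicate 2 and control replicate 4). With group means removed, r was -0.068 for Hspa8 and Dnajb1 and -0.15 for Dnajb1 and Hsph1. Without the 2 farthest libraries r was -0.039 for Hspa5 and Dnajb9, -0.28 for Dnajc5 and Dnajc6, 0.76 for Hspa8 and Hsph1, 0.86 for Hspa5 and Dnajb11 and 0.87 for Hspd1 and Hspe1. The cause was not tested for these moves. Depth limits the genes of few reads, with a counting error of 22.4% for Hspb2, 18.9% for Dnajb3 and 17.3% for Hspa1l. The intervals that 5 libraries per group give do not show that genes with a high p were equal.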

Other observations

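Between libraries of one group the chaperone genes tested varied less than genes in general: the median coefficient of variation was 8.30% in control and 7.29% in ELS, against 11.5% and 8.33% over all genes tested. The median level of the 60 chaperone genes was also higher (16.0 RPKM, against 6.09 RPKM over all 16041 genes, including those below the filter). The part of level in the difference in variation was not tested. The summed RPKM of the 60 genes was 1257 to 1416 in control and 1339 to 1475 in ELS, so these ranges overlapped. The summed level of the small heat shock proteins was 25.2 to 32.4 RPKM in control and 28.1 to 29.9 RPKM in ELS, which places every ELS library inside the control range although 4 of the 5 genes had a lower mean.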
